A study of Mus musculus with 8 samples.

Results

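RNA polymerase II and its general transcription factors were followed in mouse embryos at 2 stages, the 8-cell embryo and the blastocyst. Members were all genes on the array whose symbol starts with Polr2 or Gtf2, the TATA-binding protein gene Tbp and its relative Tbpl1, and the TAF genes (Taf with a number and at most 1 letter), without the RNA polymerase I factors Taf1a to Taf1d. This gave 46 of the 18193 genes that had a probe set with a single gene symbol, and 1 probe set stood for each gene, the one with the highest mean log2 signal. Total RNA of wild-type whole embryos of the B6D2F1 strain was hybridised to 8 one-colour oligonucleotide arrays, 4 per stage. The 8-cell embryos were taken at embryonic day 2.5, which was 66 h past the ovulation-inducing hormone hCG, and the blastocysts at embryonic day 4.5, or 120 h past it. All had been collected as 1-cell zygotes and cultured in KSOM medium. Whether the 4 arrays of each stage carry RNA of different embryo pools is not stated, and p-values therefore measure a spread that may be technical. The title of the series names transcription factor AP-2 gamma and the formation of tight junctions and of the cavity, which takes place between the 2 stages.

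RNA polymerase II transcribes the protein-coding genes. It starts at a promoter with the help of general factors. TFIID, made of TBP and the TAF proteins, recognises the promoter, TFIIA and TFIIB fix TBP on the DNA and bring in the polymerase, TFIIF escorts the polymerase, and TFIIE and TFIIH open the DNA. In the mouse, the oocyte is nearly silent before fertilisation and the embryo turns on its own genome in the first cleavages.

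All arrays share 1 trimmed mean, so a rise or fall is relative to the other signals of that array and is not an amount per embryo. In whole embryos, fewer cells of a type and less RNA per cell cannot be told apart. Over the 13274 tested genes, correlations were 0.977 or more within a stage and 0.752 to 0.78 between the stages. The RNA had been amplified, and the excess of 3' over 5' control signal was larger in 8-cell embryos. It was 2.42 ± 0.19 log2 units for Actb at that stage against 0.82 ± 0.11 later, and Gapdh gave 2.32 ± 0.26 against 1.36 ± 0.11 (SD over 4 arrays). Both gave p = 0.0286 in an exact permutation test (two-sided), the lowest value this design can reach. Its part in the results on single genes was not tested. The stages were checked against marker genes. All 6 trophectoderm markers rose, with a summed signal of 2997 to 3489 in 8-cell embryos and 73369 to 82518 in blastocysts, and all 5 oocyte and early embryo markers fell. Of 5 markers of the inner cell mass and primitive endoderm, Nanog, Sox2 and Sox17 rose, while Pou5f1 fell by 0.90 and Gata6 by 0.56 (summed signal 13097 to 15464 and 13698 to 16270). Of 5 cumulus cell markers none lay above the 40th percentile on all 4 arrays of either stage (summed signal 51.6 to 139 and 89.5 to 119). Of 4 matched blood cell markers 1 did so in each stage (summed signal 138 to 203 and 79 to 156), and of 4 fibroblast markers 1 in 8-cell embryos and 2 in blastocysts (81.1 to 138 and 187 to 258). The part of the blood cell and fibroblast markers in the results was not tested.

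Most of the machinery was lower in blastocysts. Of the 46 members, 43 lay above the 40th percentile of the array (a signal of 28.3 to 35.7) on at least 4 of the 8 arrays and were tested, and each of these did so on all 8. At an adjusted p under 0.05 in limma, 28 of the 43 were lower and 8 were higher, against 34.2% lower and 37.5% higher (71.7% in either direction) among all 13274 tested genes. The 7 others did not pass. The median difference (blastocyst minus 8-cell, taken on log2 of signal + 16) was -0.75 for the members and 0.02 for all tested genes. Of the lower members 18 changed at least 2-fold (20.4% of all tested genes did so downwards), and of the higher members 3 did (25.4% upwards). The stages did not overlap for 23 members that were lower in blastocysts and for 8 that were higher (31.5% and 35.3% of all tested genes). The extremes were Taf4b, 4.5-fold lower, and Gtf2ird1, 3.87-fold higher. When arrays were scaled to their hybridisation spike-ins, the median of all tested genes moved to 0.33 and that of the members to -0.40, and 19 members were lower and 10 higher. Among all tested genes 22.5% were then lower and 42.3% higher. The share of higher calls was 34.5% for the members and 65.2% for all tested genes on that scale, and 22.2% and 52.3% on the deposited one. The median of the members lay 0.73 below that of all tested genes with the spike-ins and 0.77 below it as deposited. Spike-in scaling multiplies a whole array and moves both medians alike apart from the added constant. It could therefore hardly change this gap. On the spike-in scale Polr2c, Polr2e, Gtf2a1, Tbp, Tbpl1, Taf3, Taf5, Taf6 and Taf11 no longer passed (adjusted p = 0.0615 to 0.63), while Polr2a and Taf15 passed as higher (adjusted p = 0.0212 and 0.0283).

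**Figure D1:**
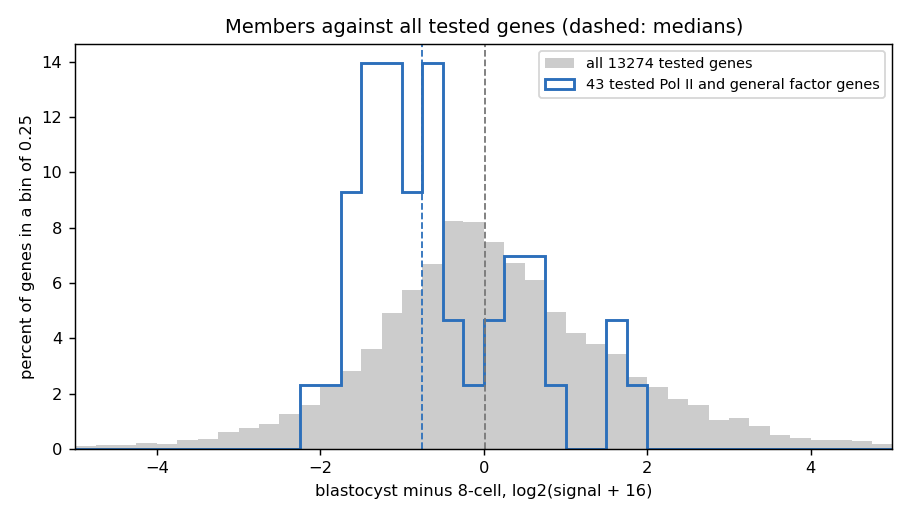
Distribution of the difference blastocyst minus 8-cell (log2(signal + 16), horizontal axis) for all 13274 tested genes (grey) and the 43 tested members (blue outline), as percent of genes per bin (vertical axis); dashed lines mark the medians, 0.02 and -0.75, and genes beyond 5 log2 units are not drawn. The members lie mostly to the left of 0, with a smaller group to the right.

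**Figure D2:**
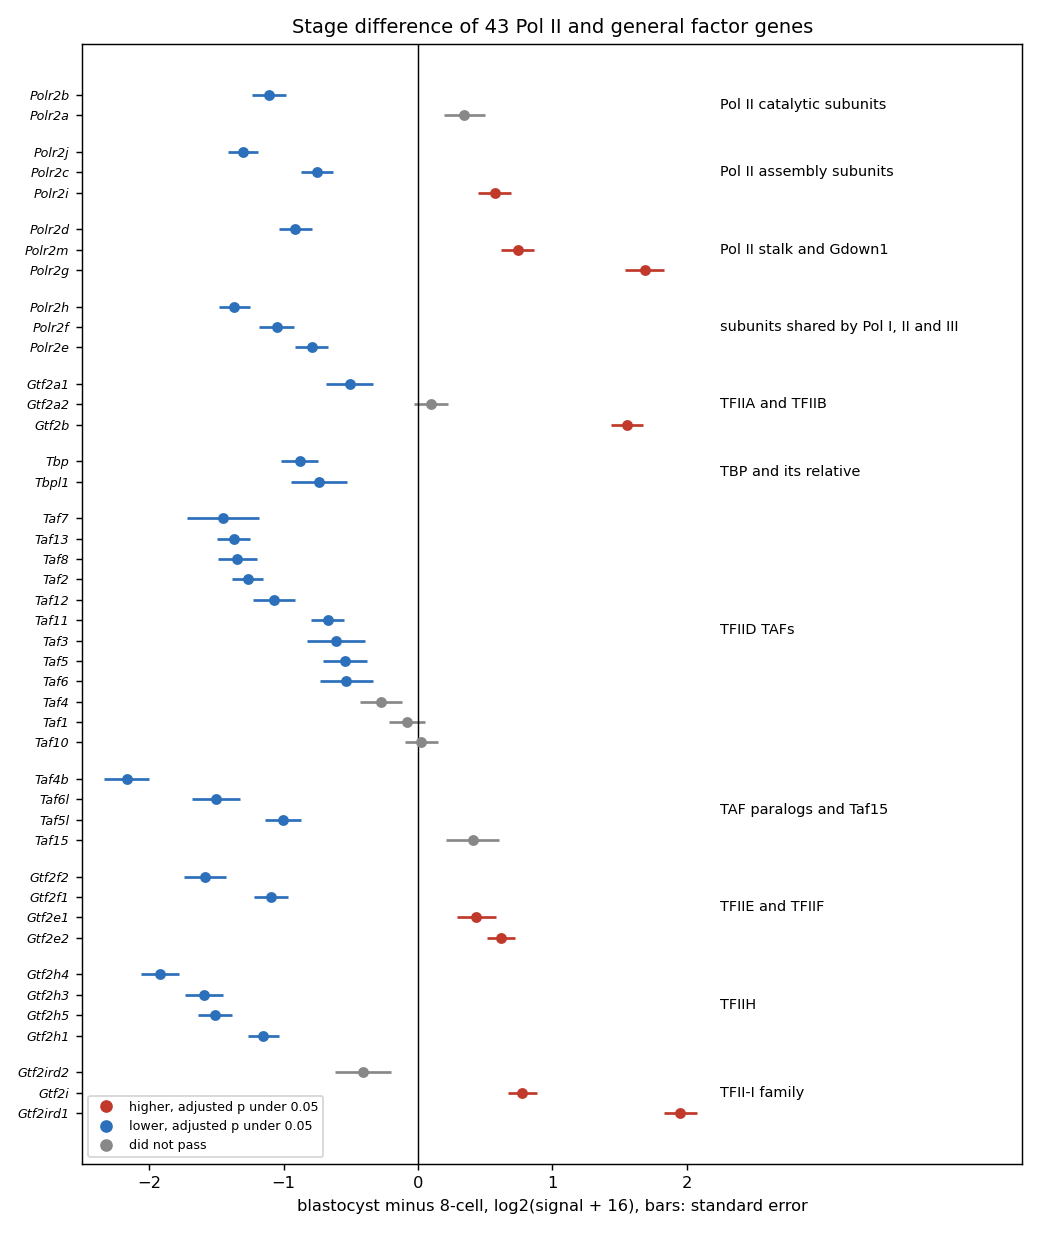
Difference blastocyst minus 8-cell (log2(signal + 16), horizontal axis) with its standard error for each of the 43 tested members, grouped by role from top to bottom. Red points passed as higher, blue as lower and grey did not pass. All 4 Gtf2h genes of TFIIH are blue, and Gtf2b, both TFIIE genes, Gtf2i and Gtf2ird1 are red.

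The Polr2 genes were split. Of 11 tested genes, counting Polr2m for the associated protein Gdown1, 7 were lower, 3 higher and 1 did not pass, with a median of -0.79. Among all tested genes 34.2% were lower and 37.5% higher. Polr2a encodes the largest subunit, which carries the catalytic centre and the repeated C-terminal tail. Its signal was 2284, 1774, 1995 and 2639 on the 8-cell arrays and 3252, 2472, 2604 and 2679 on the blastocyst arrays. The stages overlapped, and the difference did not pass (0.35 ± 0.15 SE in log2 units, adjusted p = 0.0692). It passed as higher in 5 of 20 alternatives: without 8-cell replicate 4 (0.44, adjusted p = 0.025), with quantile normalization (0.36, adjusted p = 0.049), with spike-in scaling (0.70, adjusted p = 0.0212), with an intensity trend (0.35, adjusted p = 0.0242) and with 64 added (0.34, adjusted p = 0.0459). When its probe sets were averaged, Polr2a was at -0.41 and did not pass (adjusted p = 0.126). Over all alternatives the adjusted p was 0.0212 to 0.176. The average included a probe set below the filter (mean 59.4 in 8-cell embryos and 14.6 in blastocysts). Polr2b encodes the second largest subunit, which forms the other side of the active centre. It read 14706, 15929, 17291 and 14185 on the 8-cell arrays and 7182, 7557, 6104 and 7948 on the blastocyst arrays. Every blastocyst array was below every 8-cell array, 2.16-fold lower on average (-1.11 ± 0.13 SE in log2 units, adjusted p = 3.35e-05).

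Polr2c and Polr2j encode RPB3 and RPB11, the partners that nucleate assembly of the enzyme. Polr2j fell from signals of 6416, 6068, 6432 and 5783 to 2755, 2498, 2285 and 2459.8 (2.46-fold lower; -1.30 ± 0.11 SE in log2 units, adjusted p = 4.06e-06). Polr2c fell from 6567, 6227, 7789.7 and 6379 to 4163, 4242, 3921 and 3634 (-0.75 ± 0.12 SE in log2 units, adjusted p = 0.000319). In neither gene did the stages overlap. Polr2i, encoding RPB9, a subunit that acts in start site choice and proofreading, went the other way, with 4207, 3602, 3436 and 3775 on the 8-cell arrays and 5536, 6384, 5148 and 5297 on the blastocyst arrays, again without overlap (0.57 ± 0.12 SE in log2 units, adjusted p = 0.00205).

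The stalk of the polymerase is a dimer of RPB4 and RPB7. Its genes moved in opposite directions. Polr2d, encoding RPB4, read 2473, 1997, 2252 and 2183 on the 8-cell arrays and 1031, 1213, 1323 and 1140.3 on the blastocyst arrays (1.88-fold lower; -0.91 ± 0.12 SE in log2 units, adjusted p = 0.00011). Polr2g, encoding RPB7, read 2507, 2196, 1623 and 2182 on the 8-cell arrays and 7033, 7060.4, 6370.2 and 6797 on the blastocyst arrays (3.22-fold higher; 1.69 ± 0.15 SE in log2 units, adjusted p = 4.57e-06). The stages were apart in both genes, in opposite order. Polr2m, encoding the polymerase-associated Gdown1, which holds back initiation in the absence of Mediator, read 4679.9, 3849, 3612 and 4330.3 on the 8-cell arrays and 6626, 7356, 7129 and 6405 on the blastocyst arrays. All blastocyst arrays were above the 8-cell arrays (0.74 ± 0.12 SE in log2 units, adjusted p = 0.00041).

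The subunits that RNA polymerases I, II and III share were all lower in blastocysts. Polr2h, encoding RPB8, went from 4765, 5169, 4832 and 4716 to 1926, 2113, 1759.7 and 1737, 2.58-fold lower (-1.37 ± 0.11 SE in log2 units, adjusted p = 3.32e-06). For Polr2f, encoding RPB6, the signals were 8724, 8649.9, 10064 and 8117 and then 4462, 4909.8, 3817 and 3972 (-1.05 ± 0.13 SE in log2 units, adjusted p = 5.02e-05). For Polr2e, encoding RPB5, they were 10170.0, 9183, 10581 and 10846 and then 6469, 6253, 5114 and 5772 (-0.79 ± 0.12 SE in log2 units, adjusted p = 0.000248). None of the 3 genes had overlapping stages. Dim second probe sets of Polr2e (0.00, SE 0.17) and Polr2f (0.07, SE 0.29) did not pass. The other shared subunit genes, Polr2k and Polr2l, each had 1 probe set, which the annotation assigns to several genes, and so were not counted as members.

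**Figure D3:**
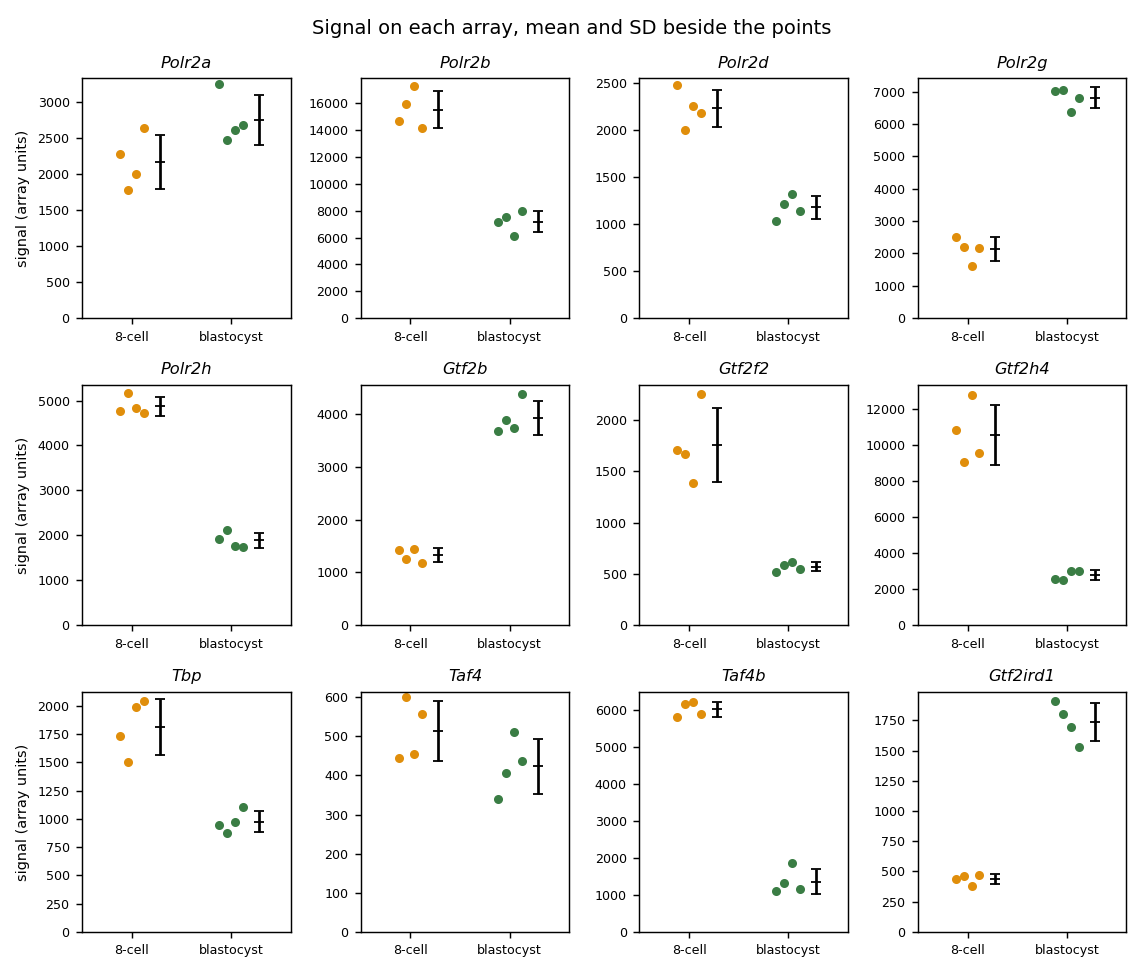
Signal of 12 members on each array (vertical axis, array units, starting at 0) in 8-cell embryos (orange, 4 arrays) and blastocysts (green, 4 arrays), with the mean and SD as black bars. Polr2g, Gtf2b and Gtf2ird1 are higher in all 4 blastocyst arrays, Polr2b, Polr2d, Polr2h, Gtf2f2, Gtf2h4, Tbp and Taf4b lower in all 4, and Polr2a and Taf4 overlap.

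TFIIB, the factor that links TBP on the promoter to the polymerase, is encoded by Gtf2b. Its signal was 1430.1, 1256, 1437 and 1179 on the 8-cell arrays and 3674, 3895, 3743 and 4386 on the blastocyst arrays. The lowest blastocyst array stood far above the highest 8-cell array, a rise of 2.94-fold (1.56 ± 0.12 SE in log2 units, adjusted p = 2.26e-06). TFIIA, which steadies TBP on DNA, did not follow. Gtf2a2, encoding its small subunit, read 917, 976, 791 and 950.1 on the 8-cell arrays and 919, 1072, 1055 and 849 on the blastocyst arrays and did not pass (0.10 ± 0.13 SE in log2 units, adjusted p = 0.519). Gtf2a1, encoding the large subunit, read 1594, 1269, 1518 and 1757 on the 8-cell arrays and 874, 907, 1212 and 1347 on the blastocyst arrays. Its stages overlapped, and it passed as lower (-0.51 ± 0.17 SE in log2 units, adjusted p = 0.0249). It did not pass without 8-cell replicate 1, 8-cell replicate 4, blastocyst replicate 1 or blastocyst replicate 2 (adjusted p = 0.0549 to 0.0709; over all alternatives adjusted p = 0.00696 to 0.63). A dimmer probe set of Gtf2a1 fell more (-1.375, SE 0.24, adjusted p = 0.000559). The last of its 3 probe sets did not pass (0.07, SE 0.23, adjusted p = 0.797). Gtf2a1l, the germ-cell form of the large subunit, read 6.5, 15.5, 1.6 and 16.6 and then 62.2, 56.3, 25.5 and 28.8. Only 2 of these 8 values were above the 40th percentile of the array, so it was not tested.

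TBP, the protein at the centre of TFIID, is encoded by Tbp. It read 1732, 1505, 1988 and 2039.6 on the 8-cell arrays and 949.7, 878, 973 and 1104 on the blastocyst arrays. The stages did not overlap, and the gene was 1.84-fold lower in blastocysts (-0.88 ± 0.14 SE in log2 units, adjusted p = 0.000269). A dim second probe set gave -0.06 (SE 0.47) and did not pass. Tbpl1 encodes the TBP-like factor, which does not bind the TATA box and is known from sperm formation. It read 1080.4, 1434, 745 and 1289.8 on the 8-cell arrays and 567, 788, 696 and 595 on the blastocyst arrays, with 8-cell replicate 3 inside the blastocyst range (-0.74 ± 0.21 SE in log2 units, adjusted p = 0.00983). Tbpl2, which takes the place of TBP in the oocyte, had no single-symbol probe set.

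No TAF of TFIID passed as higher. Of 12 tested TAF genes 9 were lower and 3 did not pass, with a median of -0.64. Among all tested genes 34.2% were lower and 37.5% higher. Taf1 encodes the largest TAF, the scaffold that contacts the promoter downstream of the start. Its signal was 1403, 1408, 1287 and 1393 on the 8-cell arrays and 1352, 1330.3, 1492 and 1050.4 on the blastocyst arrays (-0.08 ± 0.13 SE in log2 units, adjusted p = 0.599). The stages overlapped, with the lowest blastocyst array below all 8-cell arrays and the highest above them. Taf10, encoding a histone-fold subunit shared with the coactivator SAGA and needed for survival of the early mouse embryo, was at 8069 ± 645 and 8214 ± 833 (SD, n = 4 each) on its brightest probe set (0.02 ± 0.12 SE in log2 units, adjusted p = 0.875). Taf4, encoding a core scaffold, read 445, 600.3, 455 and 558 on the 8-cell arrays and 341, 407, 509.8 and 437 on the blastocyst arrays and did not pass either (-0.27 ± 0.16 SE in log2 units, adjusted p = 0.148), although it did with quantile normalization (-0.54, adjusted p = 0.00828). A dimmer probe set of Taf10 fell from 408 ± 126 to 89 ± 12.2 (-1.97, SE 0.21, adjusted p = 2.11e-05).

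Among the lower TAFs, Taf13, the histone-fold partner of TAF11, read 8970.3, 9335, 9418 and 9712 on the 8-cell arrays and 3529, 3143, 3565 and 4290.3 on the blastocyst arrays (2.58-fold lower; -1.37 ± 0.12 SE in log2 units, adjusted p = 6.14e-06). The stages were apart. Its partner gene Taf11 fell by 0.67 (SE 0.12) and Taf12, encoding the histone-fold partner of TAF4, by 1.07 (SE 0.16). Taf8, which is needed by the inner cell mass, went from 1078 ± 162 to 413 ± 54.3 (difference -1.35, SE 0.14), and Taf2, which binds the initiator at the start site, from 4357 ± 288 to 1804 ± 156 (-1.27, SE 0.12). The 4 genes named last had no overlap of the stages either. A second probe set of Taf8 gave -0.43 (SE 0.27) and did not pass. The probe sets of Taf7, whose protein holds TAF1 in check, disagreed. The brightest read 762, 525, 580.0 and 358 on the 8-cell arrays and 228, 183, 244 and 117 on the blastocyst arrays (2.73-fold lower; -1.45 ± 0.27 SE in log2 units, adjusted p = 0.000804). Another did not pass (0.10, SE 0.14, adjusted p = 0.517) and one rose by 1.23 (SE 0.22, adjusted p = 0.000634). Their average was -0.039 (adjusted p = 0.83), so the direction of Taf7 depended on the probe set.

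Smaller falls were those of Taf3, Taf5 and Taf6, and all 3 had overlapping stages. Taf5, encoding a core scaffold, read 1389, 944, 1385 and 1248 on the 8-cell arrays and 920.4, 716, 784 and 958 on the blastocyst arrays (-0.54 ± 0.16 SE in log2 units, adjusted p = 0.0132). Taf6, encoding the histone-fold partner of TAF9, read 1285, 1698, 1689 and 2070.2 on the 8-cell arrays and 1116, 926, 1049 and 1575 on the blastocyst arrays (-0.53 ± 0.20 SE in log2 units, adjusted p = 0.0343). It did not pass without 8-cell replicate 2, 3 or 4 or without blastocyst replicate 1, 2 or 3 (adjusted p = 0.0647 to 0.0947; over all alternatives adjusted p = 0.00775 to 0.584). Taf3, which reads methylated histone H3 at promoters, went from 278 ± 58.6 to 179 ± 47 (-0.61 ± 0.22 SE in log2 units, adjusted p = 0.0292). It did not pass without 8-cell replicate 2, 8-cell replicate 4 or blastocyst replicate 1 (adjusted p = 0.062 to 0.0783; over all alternatives adjusted p = 0.00602 to 0.418). Taf9 had 3 probe sets, each assigned to several genes, and was not counted.

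Several TAFs have a second gene. Taf4b, known for its role in ovary and germ cells, had the largest fall of all members. It read 5794, 6152, 6214 and 5872 on the 8-cell arrays and 1095, 1311, 1848 and 1155 on the blastocyst arrays. Every blastocyst array was far below every 8-cell array (4.5-fold lower; -2.17 ± 0.17 SE in log2 units, adjusted p = 2.13e-06). Taf5l and Taf6l encode the forms of TAF5 and TAF6 that sit in SAGA in place of TFIID. Taf6l read 589, 916, 795 and 1003 on the 8-cell arrays and 244, 276, 259 and 328 on the blastocyst arrays (2.84-fold lower; -1.50 ± 0.18 SE in log2 units, adjusted p = 4.04e-05). Taf5l read 1584, 1872, 1579 and 2186 on the 8-cell arrays and 915, 850.0, 878 and 889 on the blastocyst arrays (2.01-fold lower; -1.01 ± 0.13 SE in log2 units, adjusted p = 8.64e-05). Both had separate stages. Taf7l, a germ-cell and fat-cell form of TAF7, read 43.2, 19.9, 17 and 2.6 and then 11.4, 6.53, 25.1 and 22.7, and Taf9b had no value above the 40th percentile (1.3 to 27.3). Neither was tested. Taf15, which encodes an RNA-binding protein of the FET family found with part of TFIID, had means of 80.3 ± 21.7 and 111 ± 22.5 and did not pass (0.41, SE 0.20, adjusted p = 0.0927).

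TFIIF and TFIIE differed in direction. Both TFIIF genes fell and both TFIIE genes rose. Gtf2f2, encoding the small TFIIF subunit, read 1712, 1671, 1386 and 2254 on the 8-cell arrays and 520.1, 583, 619 and 546 on the blastocyst arrays (3-fold lower; -1.58 ± 0.16 SE in log2 units, adjusted p = 1.16e-05). Gtf2f1, encoding the large one, read 7079, 6625, 7003 and 7308 on the 8-cell arrays and 2857, 3524, 3027 and 3768 on the blastocyst arrays (2.13-fold lower; -1.09 ± 0.12 SE in log2 units, adjusted p = 3.08e-05). The stages were apart in both. Gtf2e2, encoding the small TFIIE subunit, read 2214, 2130.2, 2253 and 2393 on the 8-cell arrays and 3218, 3462, 3407 and 3756 on the blastocyst arrays (1.53-fold higher; 0.62 ± 0.11 SE in log2 units, adjusted p = 0.000548). Gtf2e1, encoding the large subunit that recruits TFIIH, read 1928, 1706, 1430.2 and 1448 on the 8-cell arrays and 2028, 1965, 2260.5 and 2552 on the blastocyst arrays (0.43 ± 0.14 SE in log2 units, adjusted p = 0.0213). All blastocyst arrays were above all 8-cell arrays in both TFIIE genes, for Gtf2e1 by a narrow margin. Gtf2e1 did not pass without 8-cell replicate 3 or 4 or blastocyst replicate 3 or 4 (adjusted p = 0.0501 to 0.058; over all alternatives adjusted p = 0.00534 to 0.0607).

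TFIIH opens the promoter, phosphorylates the tail of the polymerase and also serves in nucleotide excision repair. All 4 tested Gtf2h genes of TFIIH fell by at least 2-fold, with a median of -1.55 and no overlap of the stages. Among all tested genes 20.4% passed as at least 2-fold lower, and 31.5% were lower in blastocysts without overlap. Gtf2h4, encoding the p52 subunit that regulates the helicase XPB, read 10844, 9038, 12808 and 9585 on the 8-cell arrays and 2558, 2496, 3012 and 3003 on the blastocyst arrays (3.78-fold lower; -1.92 ± 0.14 SE in log2 units, adjusted p = 1.77e-06). That probe set is of a type (ID ending in _x_at) that can bind other transcripts, and other probe sets of the gene gave -1.38 (SE 0.18) and -1.06 (SE 0.17). Gtf2h3, encoding p34, read 739.6, 671, 835 and 964 on the 8-cell arrays and 235, 284, 233 and 263 on the blastocyst arrays (3.02-fold lower; -1.59 ± 0.14 SE in log2 units, adjusted p = 5.54e-06). Gtf2h5, encoding the small stabilising subunit whose loss causes trichothiodystrophy in humans, read 6217, 7618, 7462 and 7489 on the 8-cell arrays and 2394, 2885, 2436 and 2353 on the blastocyst arrays (2.85-fold lower; -1.51 ± 0.12 SE in log2 units, adjusted p = 3.26e-06). In each of these the lowest 8-cell array stood well above the highest blastocyst array. Gtf2h1, encoding p62, read 3603, 3532, 3695 and 3880.1 on the 8-cell arrays and 1864, 1709, 1533 and 1504 on the blastocyst arrays (2.22-fold lower; -1.15 ± 0.12 SE in log2 units, adjusted p = 1.25e-05). Gtf2h2 matched no probe set.

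The sequences before the start sites of the tested Gtf2h genes, which fell together, and of Gtf2b and Gtf2ird1, which rose, are shown for comparison. They are the 150 bases before the start, 5′ to 3′ on the strand of the gene, from RefSeq (GRCm38.p6), the first entry where a gene had more than 1. Capitals mark a match to one of 5 searched motifs on either strand, here the GC box (GGGCGG) in Gtf2h1, Gtf2h5 and Gtf2ird1 and the CCAAT box (CCAAT) in Gtf2h4 and Gtf2ird1; no marked motif overlaps another.
Gtf2h1, chr7:46795944-46796093, plus strand: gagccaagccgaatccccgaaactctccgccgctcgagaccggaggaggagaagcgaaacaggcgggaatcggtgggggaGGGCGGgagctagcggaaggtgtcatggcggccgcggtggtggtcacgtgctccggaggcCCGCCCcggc
Gtf2h3, chr5:124578998-124579147, plus strand: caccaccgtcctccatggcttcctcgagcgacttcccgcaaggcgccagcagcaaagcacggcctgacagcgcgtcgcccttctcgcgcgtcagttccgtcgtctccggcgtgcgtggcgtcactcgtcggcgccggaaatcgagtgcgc
Gtf2h4, chr17:35673744-35673893, minus strand: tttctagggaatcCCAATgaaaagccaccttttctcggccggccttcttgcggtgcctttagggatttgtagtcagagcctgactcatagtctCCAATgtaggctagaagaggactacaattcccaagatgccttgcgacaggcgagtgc
Gtf2h5, chr17:6079678-6079827, plus strand: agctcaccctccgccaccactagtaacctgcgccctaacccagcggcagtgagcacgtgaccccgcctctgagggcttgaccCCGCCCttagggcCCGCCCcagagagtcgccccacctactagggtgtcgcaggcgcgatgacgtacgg
Gtf2b, chr3:142765097-142765246, plus strand: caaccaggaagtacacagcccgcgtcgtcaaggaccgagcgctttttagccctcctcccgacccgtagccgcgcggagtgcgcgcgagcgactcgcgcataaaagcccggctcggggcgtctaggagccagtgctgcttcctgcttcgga
Gtf2ird1, chr5:134456717-134456866, minus strand: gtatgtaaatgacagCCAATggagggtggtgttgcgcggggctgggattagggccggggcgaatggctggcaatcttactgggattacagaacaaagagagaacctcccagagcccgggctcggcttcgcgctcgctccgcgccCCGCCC
A search of the 250 bases before each start covered 5 motifs on both strands, and promoters were found by symbol for 40 members (48 start sites). The GC box was present at 29 of the 48 start sites (60.4%) and at 32.7% of all 32851 start sites in the table. For this and the other motifs, these start sites were not limited to genes tested on the arrays. Shares for the tested genes alone were not taken. By call, the GC box was at 18 of 30 start sites of lower members and 4 of 7 of higher ones. The ETS motif CCGGAAG was at 10 (20.8%, against 6.91%), among them 9 of 30 of lower members and 0 of 7 of higher ones. The palindromic NRF1 motif was at 8 (16.7%, against 3.74%), among them 6 of 30 of lower members and 1 of 7 of higher ones. The CCAAT box was at 14 (29.2%, against 33.8%), among them 5 of 7 start sites of higher members and 6 of 30 of lower ones. The TATA box letters TATAAA were at 9 (18.8%, against 12.4%), among them 6 of 30 of lower members and 0 of 7 of higher ones. Matches describe letters in these windows and are not evidence of binding, and start sites of 1 gene share sequence. The 7 start sites of higher members, 2 of them of Polr2m, are too few for a contrast between calls, which was not tested. Polr2d, Polr2g, Taf2, Taf4b, Taf7 and Gtf2e2 had no entry.

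The TFII-I family carries the name of a general factor, but its proteins are signal-regulated DNA-binding factors. Gtf2ird1 had the largest rise of all members. It read 436, 459.9, 377 and 473 on the 8-cell arrays and 1909, 1805, 1697 and 1534 on the blastocyst arrays (3.87-fold higher; 1.95 ± 0.12 SE in log2 units, adjusted p = 6.20e-07). Its other probe set also rose (2.42, SE 0.32). Gtf2i, encoding TFII-I, read 1638, 1662, 1645 and 1945 on the 8-cell arrays and 3051, 2949.7, 3002 and 2829 on the blastocyst arrays on its brightest probe set (0.78 ± 0.11 SE in log2 units, adjusted p = 0.000134). The stages of both genes were apart, but another probe set of Gtf2i fell by 1.15 (SE 0.16, adjusted p = 0.000146). Gtf2ird2 had means of 310.1 ± 57.8 and 233 ± 64 and did not pass (-0.41, SE 0.21, adjusted p = 0.109), although it did with quantile normalization (-0.64, adjusted p = 0.0163). In the reference gene table the 3 genes lie in one stretch of chromosome 5 in the order Gtf2ird2, Ncf1, Gtf2i and Gtf2ird1.

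The balance between paralogs was compared as the log2 ratio of both genes within each array, which is not moved by the scaling of the array apart from the added constant. In 5 of 7 pairs both genes were above the filter, and 3 of these shifted between stages (exact two-sided permutation test over 70 assignments of the arrays; adjusted p = 0.04 over the 7 pairs and 0.0476 over the 5). Taf4 over Taf4b moved by 1.90 (SE 0.14), from -3.52 ± 0.20 to -1.62 ± 0.19 (SD, n = 4), Taf4b having fallen. Taf6 over Taf6l moved by 0.97 (SE 0.12), both genes having fallen. Gtf2i over Gtf2ird1 moved by -1.18 (SE 0.08), both genes having risen on their brightest probe sets. The exact p was 0.0286 for each of the 3. Their adjusted p was 0.0667 with the other 2 pairs counted as not passing, and exactly 0.05, which does not pass, when the probe sets of a gene were averaged or when 1 was added in place of 16. Taf5 over Taf5l moved by 0.47 (SE 0.22, exact p = 0.114, adjusted p = 0.133) and Tbp over Tbpl1 by -0.14 (SE 0.32, exact p = 0.714, adjusted p = 0.714), and neither passed. In the pairs Taf7 and Taf7l and Gtf2a1 and Gtf2a1l the paralog lay near the floor of the array, so no shift is read from them.

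A further 9 pairs of proteins that bind each other were listed after the values had been seen. None passed when adjusted over the 9 on the deposited scale, where 0.0514 was the lowest value reached. With quantile normalization 6 of the 9 passed (adjusted p = 0.0429), those of Polr2d/Polr2g, Polr2c/Polr2j, Gtf2f1/Gtf2f2, Taf4/Taf12, Taf8/Taf10 and Taf3/Taf10. The exact p of the permutation test cannot fall below 0.0286, so passing depended on how many of the 9 reached it. As the pairs were picked on the same arrays, these p-values only describe them. The widest shift was that of Polr2d over Polr2g, -2.60 (SE 0.17, exact p = 0.0286, adjusted p = 0.0514). The ratio was -0.02, -0.14, 0.47 and 0.00 on the 8-cell arrays and -2.75, -2.53, -2.25 and -2.56 on the blastocyst arrays, with no overlap. Taf8 over Taf10 moved by -1.37 (SE 0.18, exact p = 0.0286, adjusted p = 0.0514) and Taf4 over Taf12 by 0.80 (SE 0.20, exact p = 0.0286, adjusted p = 0.0514). On their other probe sets Taf8 gave -0.43 (SE 0.27) and Taf10 -1.97 (SE 0.21). The shifts of Taf8 and Taf3 over Taf10 therefore hold for the brightest probe sets only. Gtf2e1 over Gtf2e2 moved by -0.18 (SE 0.14, exact p = 0.286, adjusted p = 0.286), with overlapping stages.

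**Figure D4:**
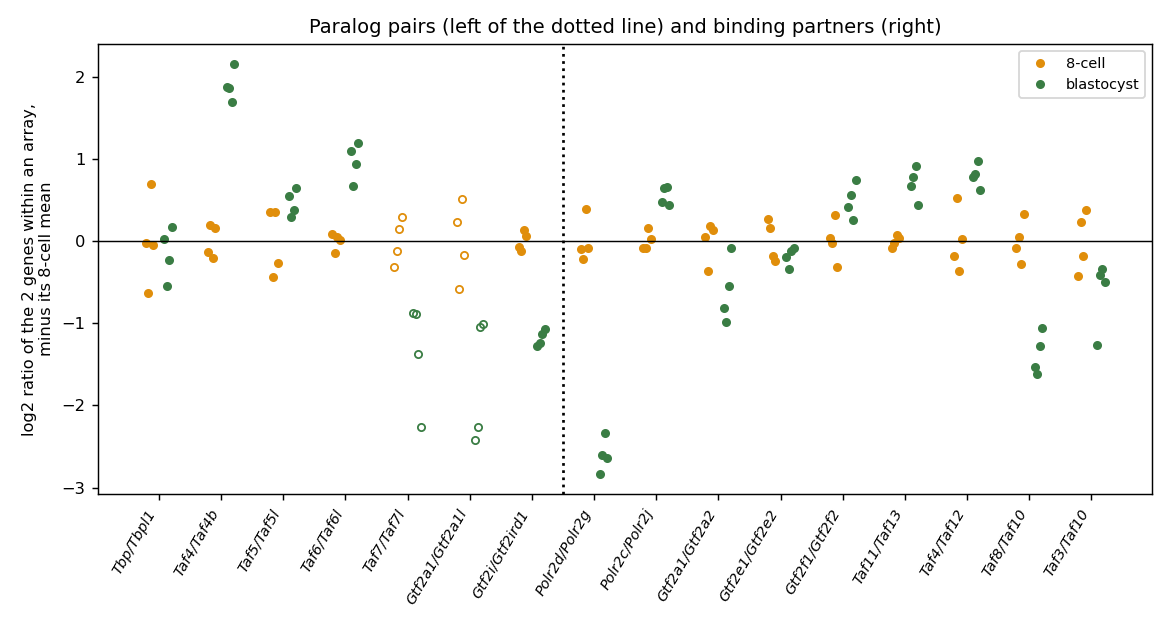
Log2 ratio of the first gene over the second within each array (vertical axis), minus the 8-cell mean of that pair, for 7 paralog pairs (left of the dotted line) and 9 pairs of binding partners (right); each point is 1 array, orange for 8-cell and green for blastocyst, and open points mark the 2 pairs with a gene below the filter, whose ratios are not read. Taf4/Taf4b rises by 1.90 and Polr2d/Polr2g falls by 2.60, while the stages overlap for Tbp/Tbpl1.

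Other probe sets of the same genes did not always follow. Of the 46 members 21 had more than 1 probe set, which gave 29 others beside the brightest. Of the 29, 7 lay below the filter, 8 did not pass where the brightest did, 2 passed where it did not and 2 were called the opposite way, while the others shared the call. Their p-values were adjusted over the 23724 probe sets tested. The opposite calls were those of Gtf2i and Taf7, and those gained were of Taf10 and Taf15 (0.97, SE 0.18, adjusted p = 0.000861). The second probe set of Tbpl1 did not pass (-0.44, SE 0.19). All 3 tested probe sets of Taf4b fell (-2.17, -1.78 and -1.65), as did both tested ones of Gtf2f1, Gtf2h5 and Taf2. When the probe sets of each gene were averaged, Gtf2i gave -0.59 and Taf10 -0.97, both passing as lower, and Polr2e, Tbp and Taf7 no longer passed. The averages included probe sets below the filter. Those of Gtf2i had means of 16.4 and 42 in 8-cell embryos and 7.14 and 2.49 in blastocysts. Polr2e, Tbp, Tbpl1 and Taf8 also lost their calls when probe sets of the types that can bind several transcripts were dropped. Polr2b, Polr2i, Polr2m, Gtf2h1, Gtf2h3 and Gtf2i had only probe sets of these types and could not be tested in that run. Where the probe sets of a gene lie along its transcript is not given in the files, and the part of the 3' to 5' difference between stages in these disagreements was not tested.

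**Figure D5:**
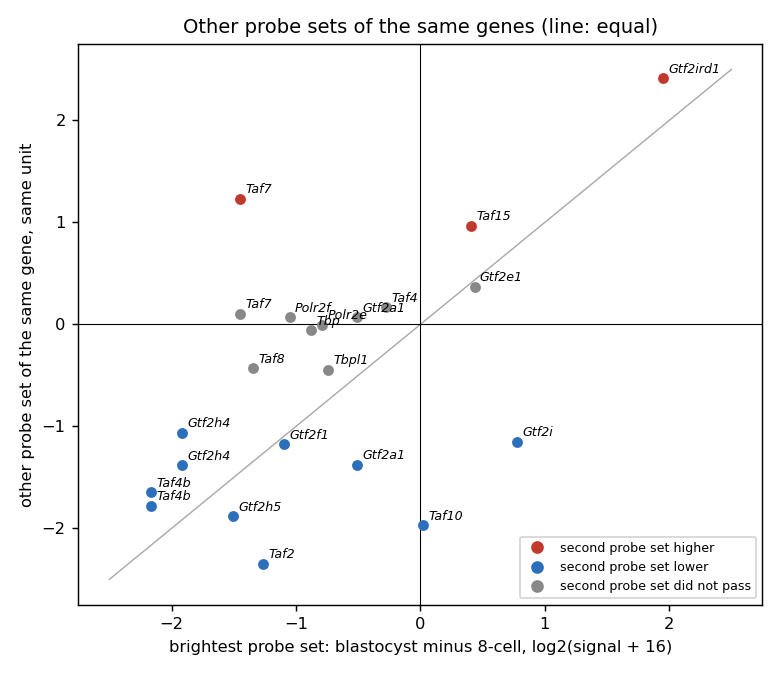
Difference blastocyst minus 8-cell (log2(signal + 16)) of the brightest probe set of a gene (horizontal axis) against that of each other tested probe set of the same gene (vertical axis); the diagonal marks equal values, and the colour gives the call of the other probe set. Gtf2i, Taf7 and Taf10 lie far from the diagonal, and the Taf4b, Gtf2h4, Gtf2f1 and Gtf2ird1 points share the sign of the brightest.

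Genes that work with the polymerase were also split. Of 6 genes of the rest of TFIIH and its repair partner 3 were lower (Ercc2, Cdk7 and Ccnh), 1 higher and 2 not passing. Those not passing were Ercc3 (-0.01, SE 0.12, adjusted p = 0.935) and Mnat1 (0.11, SE 0.18, adjusted p = 0.599), so not all TFIIH genes fell. Ercc2, encoding the helicase XPD, went from 860.3 ± 187 to 326 ± 42.7 (-1.34 ± 0.17 SE in log2 units, adjusted p = 6.01e-05). Ercc5, a repair nuclease, was higher (0.62 ± 0.17 SE in log2 units, adjusted p = 0.0071), but not with quantile normalization (0.38, adjusted p = 0.0507) or when its probe sets were averaged (0.21, adjusted p = 0.304). Of 28 tested genes of pausing and elongation 15 were lower, 6 higher and 7 did not pass, with a median of -0.53. Ell2, an elongation factor of the super elongation complex, fell from 7305 ± 700.0 to 809 ± 124 (8.93-fold lower; -3.16 ± 0.14 SE in log2 units, adjusted p = 9.49e-08), and by 1.52 when its probe sets were averaged. Aff4, the scaffold of that complex, rose from 1306 ± 215 to 2737 ± 46.4 (1.07 ± 0.13 SE in log2 units, adjusted p = 5.48e-05), but gave 0.30 when its probe sets were averaged (adjusted p = 0.0584).

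Of 16 tested genes of polymerase assembly, import and tail phosphatases 8 were lower, 7 higher and 1 did not pass, with a median of -0.30. Rpap3, which helps to assemble the polymerase in the cytoplasm, fell from 5423 ± 184 to 1608 ± 169.5 (-1.75 ± 0.12 SE in log2 units, adjusted p = 8.00e-07). Ctdspl, a small phosphatase of the tail, rose from 107 ± 30.2 to 1997 ± 662 (16.2-fold higher; 4.02 ± 0.24 SE in log2 units, adjusted p = 4.27e-07). Of 18 tested genes of SAGA and of regulators of TBP 7 were lower, 5 higher and 6 did not pass (median -0.11). Sgf29, a SAGA subunit that reads methylated histone H3, fell by 2.03 (SE 0.13), from 5546 ± 773 to 1335 ± 83. Drap1, a repressor that binds TBP together with DR1, rose by 1.06 (SE 0.17), from 386 ± 87.9 to 807 ± 64.5. These shares stand beside 34.2% lower and 37.5% higher among all tested genes.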

How the data were processed

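The deposited files hold 1 signal intensity per probe set for each array, on a linear scale, for 45101 probe sets. Per the labels' protocols, RNA was isolated with the PicoPure kit, amplified with a small-sample labelling assay and biotin-labelled. For the software that made the intensities: not given in the sources used here. Each deposited array has a trimmed mean signal of 500. The 8-cell values carry 1 decimal and most blastocyst values more, so the export cannot be told apart from the stage. The number of arrays limits the precision.

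Gene names came from the platform annotation: 34945 probe sets had 1 symbol, 932 several, and 9160 were not listed. The brightest probe set of a gene was kept, log2(signal + 16) taken, and genes tested if at least 4 of 8 arrays exceeded their own 40th percentile, using limma 3.58.1 (R 4.3.3), blastocyst minus 8-cell, with Benjamini-Hochberg adjustment over 13274 genes and a threshold of 0.05. The limma fit was tested on simulated data. Pair ratios were tested with exact permutations. Replicate numbers did not pair the arrays. Named were all members by role, with every array's value for Polr2a, Tbp, Gtf2b, Taf1, the paralog pairs and the highest and lowest 2 called members of each role, and in each other list the called genes with the highest and the lowest difference, with Tbpl2. Further values are given where they help the description. The members and lists were chosen with earlier results of these data known. Alternatives covered scaling, filter, probe set choice, added constant, model and each array left out.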

Additional observations from a re-analysis of the deposited data

Results flagged for a closer look

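In 5 of the 92 groups of 4 arrays (5.43%) the highest or lowest array stood apart from the others by Dixon's measure, the gap to the nearest array over the whole range, above the 95% critical value. Chance gives about 1 in 20 such groups. For Taf1 in 8-cell embryos (0.88) replicate 3 read 1287 and the others 1393 to 1408. For Taf8 in blastocysts (0.909) replicate 4 read 494.4 and the others 381.8 to 390.9. For Gtf2i in 8-cell embryos (0.917) replicate 4 read 1945 and the others 1638 to 1662. Gtf2h5 was picked out in both stages, with 8-cell replicate 1 at 6217 against 7462 to 7618 (0.898) and blastocyst replicate 2 at 2885 against 2353 to 2436 (0.831). The distant array was a different one each time.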

How the results depend on the processing

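Of the 43 tested members 25 had the same call in every alternative in which they were tested, among them 17 of the 28 lower and 6 of the 8 higher ones. For Polr2b, Polr2i, Polr2m, Gtf2h1 and Gtf2h3 these were 19 alternatives in place of 20. They had only probe sets with the suffix _a_at and were not tested when these were dropped. Of all 46 members, 25 had only 1 probe set (not the same 25 as those with a constant call). Neither averaging nor dropping probe sets could give these genes another value. For them a constant call says nothing on the choice of probe set. Leaving out 1 array at a time gave 7 to 8 higher and 25 to 28 lower members, with a median of -0.82 to -0.71. Quantile normalization gave 9 higher and 30 lower, and median scaling 8 and 28. With hybridisation spike-in scaling 2993 of all tested genes were lower in place of 4539. When probe sets with the suffixes _x_at, _s_at and _a_at were dropped, 37 members were tested, of which 5 were higher and 21 lower, and Polr2e, Tbp, Tbpl1 and Taf8 were no longer called. When the probe sets of a gene were averaged, also those below the filter, Polr2e, Tbp and Taf7 were no longer called. Taf10, which had not passed, passed as lower (-0.97), Gtf2i was reversed to -0.59 and Taf7 over Taf7l to 0.064. That ratio was -1.51 with an added constant of 1 and no longer passed. The adjusted p of Taf4 over Taf4b (1.81 averaged, 1.90 with 1 added), Taf6 over Taf6l (0.97 and 1.01), Gtf2i over Gtf2ird1 (-2.77 and -1.21) and Gtf2a1 over Gtf2a1l (-1.78 and -2.76) was exactly 0.05 in those alternatives. With the pairs below the filter counted as not passing, chosen after seeing the data, the first 3 of these (1.90, 0.97 and -1.18) had an adjusted p of 0.0667. With 1 array left out, which was not tested, all 24 values of these 3 pairs kept their direction. Quantile normalization let 6 of 9 partner pairs pass. With the replicate number as a block, which did not pair the arrays (correlations of deviations -0.035 to -0.024), members stayed at 8 higher and 28 lower, although Gtf2e1 (0.43, adjusted p = 0.0607) no longer passed and Taf15 did (adjusted p = 0.0304). Array weights ended the call of Taf3 (adjusted p = 0.0599). The cause of these changes was not tested. Taf7l, Taf9b and Gtf2a1l are too near the floor of the array for a level.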
